A study of Mus musculus with 6 samples.

Results

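The 9 genes described here are the eicosanoid and effector genes of tuft cells: Alox5, Alox5ap, Ltc4s, Ptgs1, Ptgs2, Hpgds, Pla2g4a, Il25 and Chat. They were taken by gene symbol from a table of 39179 mouse genes, and each symbol matched 1 row. Their RNA was measured by sequencing of mouse pylorus, the outlet region of the stomach, in 3 Sox2 KO and 3 Sox2 WT libraries. Sox2 KO mice (Rosa26CreER; Sox2 fl/fl) carried a tamoxifen-activated Cre recombinase at the Rosa26 locus and floxed alleles of Sox2, which encodes a transcription factor of gastric stem cells. Sox2 WT mice (Rosa26WT; Sox2fl/fl) carried the same floxed alleles without Cre, so the presence of Cre differed along with the loss of Sox2. Mice of both groups, on a mixed C57BL/6 and 129 background, received tamoxifen when 8 weeks old, and tissue was taken 2 weeks later. The samples' age label (8 weeks) and the age in the series text (10 weeks) differ. Rosa26 is active in most cell types, so Cre was not limited to the epithelium. The muscle layer was peeled off, and RNA came from the epithelium with its mesenchyme. Whether each library comes from a different animal is not stated, and the p-values therefore measure the spread among libraries, which may be technical in part.

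Tuft cells are rare chemosensory cells of the gut epithelium. They release lipid mediators, the cytokine interleukin-25 and acetylcholine when they sense their surroundings, a role known best from the mouse small intestine. The lipid mediators start from arachidonic acid, which a phospholipase cuts from membranes. One branch, through 5-lipoxygenase, yields leukotrienes, and another, through the cyclooxygenases, yields prostaglandins. Several of these enzymes are also made by mast cells, macrophages and other leukocytes, and Chat is also made by neurons. In whole tissue, more cells of a type and more RNA per cell cannot be told apart.

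All values are RPKM, read counts scaled to gene length and library depth, as the authors deposited them, and values per library are given in the order of replicates 1 to 3. Sox2 itself fell to 0.324 ± 0.106 RPKM in Sox2 KO, against 10.3 ± 1.13 RPKM in Sox2 WT (SD, n = 3 each), with an adjusted p of 2.9e-04 in the limma test over all genes. Reads in genes, recovered from the RPKM, numbered 29776688 to 32581740 in the Sox2 KO libraries and 22015343 to 27535565 in the Sox2 WT libraries. Markers of pyloric epithelium were abundant throughout: Tff1 was between 42073 and 59033 RPKM in Sox2 KO and between 37094 and 61772 RPKM in Sox2 WT. By the female-specific transcript Xist and the Y-linked gene Ddx3y, the 3 Sox2 KO libraries and Sox2 WT replicate 1 were male and Sox2 WT replicates 2 and 3 were female, so sex differed along with genotype. The Sox2 WT libraries therefore did not all come from the same animal.

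Alox5, Alox5ap, Ltc4s, Ptgs1 and Hpgds were each higher in every Sox2 KO library than in every Sox2 WT library, with ratios of the group means between 1.27 and 2.42. None of the 7 genes that could be tested passed the test over all genes. The values of Pla2g4a and Ptgs2 overlapped between the groups, and Il25 and Chat were too low to test. The test was limma on log2(RPKM + 0.5) over 14045 genes with a mean of at least 0.5 RPKM, with an adjusted p under 0.05 as the threshold. It called 0.0285% of all genes, 0.0142% higher and 0.0142% lower in Sox2 KO. Groups without overlap were seen, with Sox2 KO above, in 4.09% of all genes tested and, with Sox2 KO below, in 2.99%. An unadjusted p under 0.05 with a higher level in Sox2 KO was reached by 5 of the 7 genes, against 2.11% of all genes (3.15% in either direction). The log2 fold change was above 0 in 6 of the 7 genes and in 56.8% of all genes. For each of the 5 genes without overlap the exact permutation test gave a two-sided p of 0.1, the smallest that 3 libraries against 3 allow. The median log2 fold change was 0.57 over the 7 genes and 0.02 over all genes tested.

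**Figure D1:**
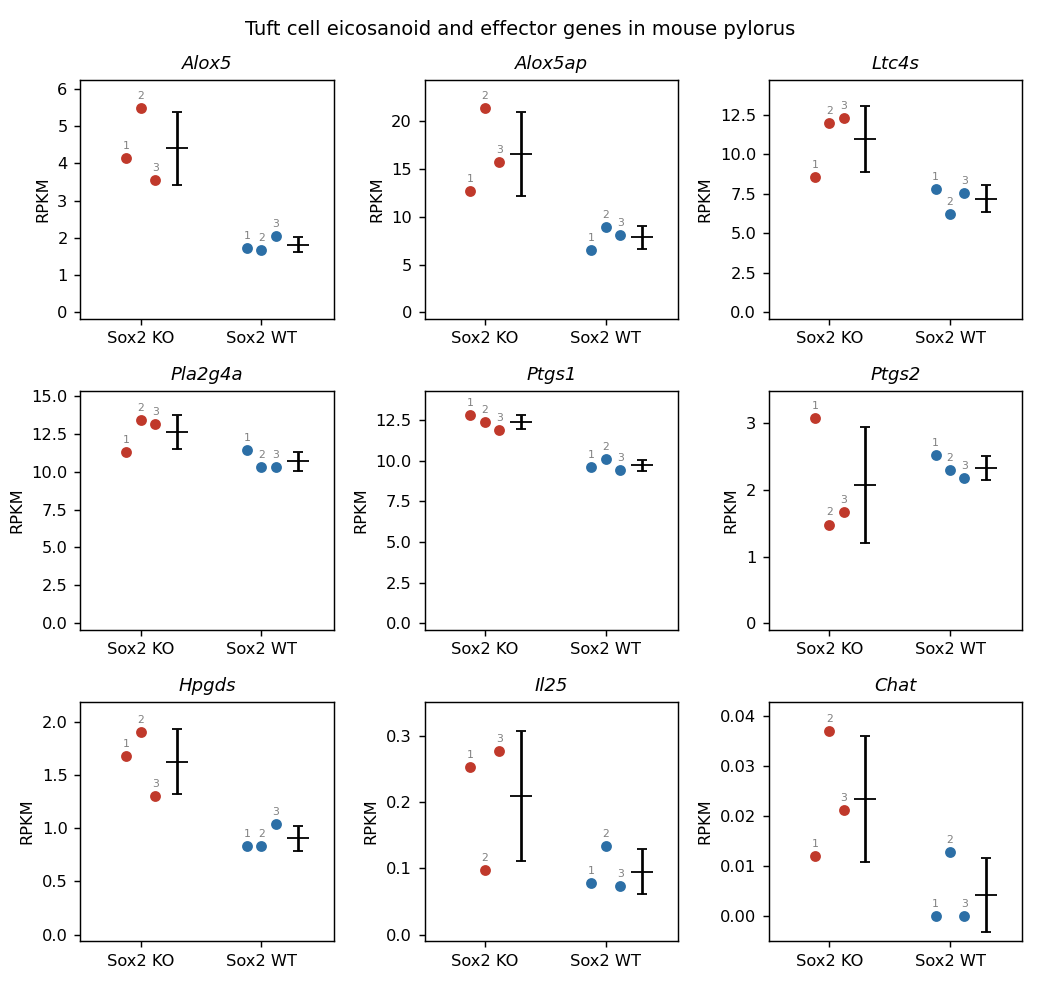
RPKM of each gene in the 3 Sox2 KO (red) and 3 Sox2 WT (blue) libraries, with replicate numbers above the points and the mean with its SD in black; each panel has its own vertical axis. Alox5, Alox5ap, Ltc4s, Ptgs1 and Hpgds show no overlap between the groups, while Ptgs2 is highest and lowest in Sox2 KO libraries, at 3.07 and 1.48 RPKM.

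The largest log2 fold changes among the 7 tested genes were in the leukotriene branch, in Alox5 and Alox5ap. Alox5 encodes 5-lipoxygenase, the enzyme that starts leukotriene synthesis. It was at 4.16, 5.49 and 3.56 RPKM in Sox2 KO, against 1.74, 1.68 and 2.04 RPKM in Sox2 WT. Every Sox2 KO library was above the highest Sox2 WT library. The mean was 4.40 ± 0.989 RPKM in Sox2 KO and 1.82 ± 0.192 RPKM in Sox2 WT (SD, n = 3 each), from 1568 reads in Sox2 KO and 548 reads in Sox2 WT. The log2 fold change of 1.06 (SE 0.165, 95% interval 0.68 to 1.45) ranked 22 of 14045 genes by p and did not pass (limma adjusted p = 0.189).

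Alox5ap encodes the membrane protein that presents arachidonic acid to 5-lipoxygenase. Its level was 12.7, 21.4 and 15.7 RPKM in Sox2 KO and 6.55, 8.89 and 8.10 RPKM in Sox2 WT. Replicate 2 was the highest Sox2 KO library for Alox5ap and for Alox5 alike. The log2 fold change was 1.02 (SE 0.201, 95% interval 0.54 to 1.49, limma adjusted p = 0.390). Within each library Alox5ap was above its partner: the ratio of Alox5ap to Alox5 was 3.79 ± 0.686 in Sox2 KO and 4.34 ± 0.823 in Sox2 WT (SD, n = 3 each), and these ratios overlapped.

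Ltc4s encodes the synthase that joins glutathione to the first leukotriene to make the cysteinyl leukotrienes. Its Sox2 KO libraries lay at 8.55, 12 and 12.3 RPKM and its Sox2 WT libraries at 7.80, 6.22 and 7.52 RPKM. Sox2 KO replicate 1 stood closer to the Sox2 WT libraries than to the other Sox2 KO libraries. The log2 fold change was 0.57 (SE 0.165, 95% interval 0.18 to 0.96, limma adjusted p = 1.00). In the annotation Ltc4s overlaps an antisense gene, Gm26542, and Alox5ap another, Gm19719, and reads of such pairs cannot be told apart without strand information.

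Upstream of both branches, Pla2g4a encodes the cytosolic phospholipase that frees arachidonic acid. It had 8086 recovered reads in Sox2 KO and 5716 in Sox2 WT. Its level was 11.3, 13.4 and 13.1 RPKM in Sox2 KO and 11.4, 10.3 and 10.3 RPKM in Sox2 WT. Sox2 KO replicate 1 lay within the Sox2 WT range, and the log2 fold change was 0.23 (SE 0.109, 95% interval -0.03 to 0.48, limma adjusted p = 1.00).

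In the prostaglandin branch the cyclooxygenase genes had unlike values. Ptgs1 encodes cyclooxygenase-1, the constitutive form. It was at 12.8, 12.4 and 11.9 RPKM in Sox2 KO and at 9.60, 10.1 and 9.45 RPKM in Sox2 WT. The groups were tight and did not overlap, and the difference was small, with a log2 fold change of 0.33 (SE 0.0931, 95% interval 0.11 to 0.55, limma adjusted p = 0.938). Ptgs2 encodes cyclooxygenase-2, the inducible form. It was at 3.07, 1.48 and 1.67 RPKM in Sox2 KO, on both sides of the 2.52, 2.30 and 2.17 RPKM of Sox2 WT. The log2 fold change of Ptgs2 was -0.19 (SE 0.225, 95% interval -0.71 to 0.34, limma adjusted p = 1.00), and without Sox2 KO replicate 1 it was -0.45 (limma adjusted p = 0.972). Ptgs1 was above Ptgs2 in every library, by a ratio of 4.17, 8.34 and 7.14 in Sox2 KO and of 3.82, 4.39 and 4.35 in Sox2 WT.

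Hpgds encodes the haematopoietic prostaglandin D synthase, which turns the cyclooxygenase product into prostaglandin D. Its level was 1.68, 1.90 and 1.30 RPKM in Sox2 KO and 0.833, 0.837 and 1.04 RPKM in Sox2 WT. Sox2 KO replicate 3 was the nearest to the Sox2 WT libraries, without reaching them. The log2 fold change was 0.59 (SE 0.154, 95% interval 0.23 to 0.95, limma adjusted p = 0.823), from 535 reads in Sox2 KO and 251 reads in Sox2 WT.

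**Figure D2:**
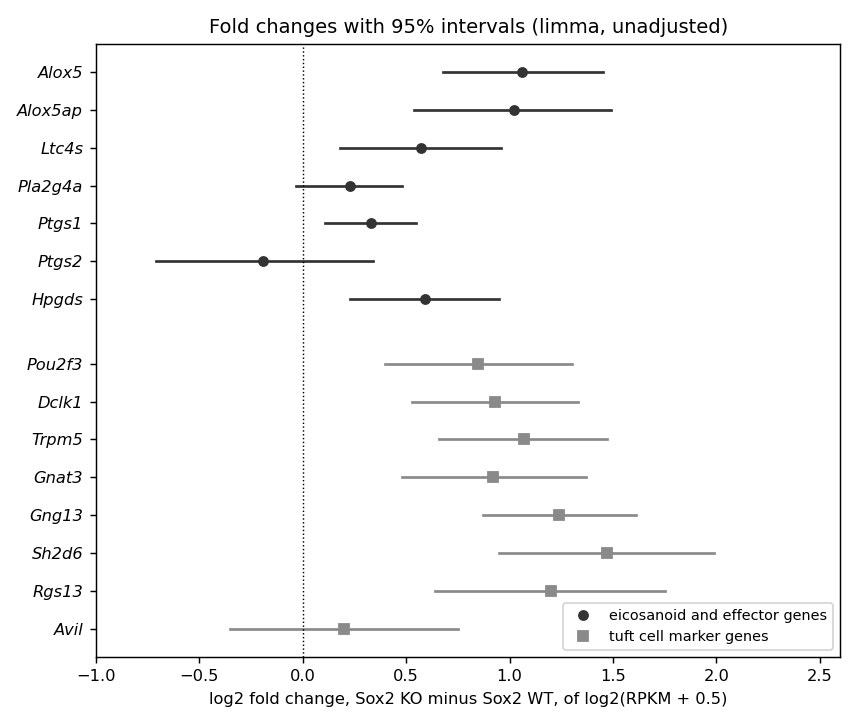
Log2 fold change of Sox2 KO over Sox2 WT for the 7 tested eicosanoid genes (circles) and 8 tuft cell marker genes (squares), with 95% intervals that are not adjusted for the number of genes. The intervals of Pla2g4a, Ptgs2 and Avil include 0, and Alox5, at 1.06, lies beside Trpm5, at 1.07.

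The start regions of Alox5, Hpgds and Ptgs1, genes that differed without overlap by unlike amounts, are shown because factors of tuft cells read known motifs. Ltc4s also differed without overlap and had an entry, but its region is not shown. The regions shown include every gene with a match to the motifs marked. Each region is the 300 bases from 250 before to 50 after the gene's RefSeq start, on the gene's own strand, build GRCm38.p6. Of the 9 genes 7 had an entry. Capitals mark matches, on either strand, to the octamer ATGCAAAT read by POU factors such as POU2F3 or to GAGGAAGT read by ETS factors such as SPIB.
Alox5, chr6:116461129-116461428, minus strand: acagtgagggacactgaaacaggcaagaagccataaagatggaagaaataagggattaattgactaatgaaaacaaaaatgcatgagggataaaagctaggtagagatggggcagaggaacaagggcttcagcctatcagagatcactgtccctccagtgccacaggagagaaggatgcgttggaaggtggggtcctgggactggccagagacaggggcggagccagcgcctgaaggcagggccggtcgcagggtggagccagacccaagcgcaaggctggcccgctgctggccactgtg
Hpgds, chr6:65144681-65144980, minus strand: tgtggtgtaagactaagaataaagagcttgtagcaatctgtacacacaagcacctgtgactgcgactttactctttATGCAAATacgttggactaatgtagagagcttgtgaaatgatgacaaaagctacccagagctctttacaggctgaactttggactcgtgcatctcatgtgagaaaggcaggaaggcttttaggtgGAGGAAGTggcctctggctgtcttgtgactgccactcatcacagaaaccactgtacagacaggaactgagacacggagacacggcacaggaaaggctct
Ptgs1, chr2:36230176-36230475, plus strand: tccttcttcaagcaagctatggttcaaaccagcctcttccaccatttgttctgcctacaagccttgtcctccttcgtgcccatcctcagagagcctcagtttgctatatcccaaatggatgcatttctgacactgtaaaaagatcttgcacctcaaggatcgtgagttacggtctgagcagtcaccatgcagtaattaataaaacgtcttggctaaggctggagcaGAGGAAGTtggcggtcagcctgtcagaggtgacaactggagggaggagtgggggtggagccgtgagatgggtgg
The Hpgds window holds the octamer 174 bases before the RefSeq start and the ETS motif 49 bases before it. That start lies 178 bases inside the gene as the GENCODE annotation draws it, so both matches are downstream of the GENCODE start. The Ptgs1 window holds the ETS motif 24 bases before its start, and the Alox5 window holds neither. Over the 7 genes with an entry, the octamer is in 1 and the ETS motif in 2, and the windows of Ltc4s, Pla2g4a, Ptgs2 and Chat, not shown, hold neither. Among the 32851 windows of the table, 1.74% hold the octamer and 3.20% the ETS motif. The letters CATTGT, of the kind that SOX factors read, are in 12.6% of all windows and in none of the 8 windows of the 7 genes. These matches describe the letters alone, and binding was not measured.

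Il25 and Chat, the cytokine and neurotransmitter genes, were near the limit of detection. Il25 encodes interleukin-25, which acts on innate lymphoid cells. It had 8, 3 and 10 reads in Sox2 KO and 2, 4 and 2 reads in Sox2 WT. The pooled level was 0.213 RPKM in Sox2 KO (95% exact Poisson interval 0.132 to 0.326) and 0.0971 RPKM in Sox2 WT (0.0419 to 0.191). The intervals overlap, as did the libraries. Chat encodes the enzyme that makes acetylcholine. It had 1, 3 and 2 reads in Sox2 KO, against 0, 1 and 0 reads in Sox2 WT. The pooled level of Chat was 0.0231 RPKM in Sox2 KO (95% exact Poisson interval 0.00849 to 0.0504) and 0.00461 RPKM in Sox2 WT (1.2e-04 to 0.0257). These intervals cover counting error only. A difference in Chat was not detectable at this depth. In the annotation Slc18a3, the gene of the vesicular acetylcholine transporter, lies within Chat on the same strand.

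The library profile of each gene was ranked against those of 12239 tested genes, predicted genes left out. Likeness was the root mean square difference of log2(RPKM + 0.5) over the 6 libraries, each gene centred on its own mean. The gene most like Alox5 was Dclk1, at a difference of 0.0759, followed by Trpm5, at 0.0891, and Pik3r5, at 0.0951. Dclk1 encodes a kinase used as a tuft cell marker, Trpm5 a cation channel of taste and tuft cells, and Pik3r5 a regulatory subunit of a phosphoinositide kinase. For Alox5ap the nearest were Ly6g6f, at 0.0580, Pou2f3, at 0.106, and Gnat3, at 0.140. Ly6g6f had a Sox2 WT mean of 0.366 RPKM and passed the filter through its Sox2 KO level. Pou2f3 encodes the transcription factor that specifies tuft cells, and Gnat3 the G protein subunit gustducin. For Hpgds they were Il17rb, at 0.0854, Plcg2, at 0.0968, and Inpp5d, at 0.0970. Il17rb encodes a receptor chain for interleukin-25.

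The other genes had unlike neighbours. Nearest to Ltc4s were Ccna1, at 0.0943, Irgm2, at 0.108, and Nrep, at 0.125. Ptgs1 was nearest to Osgin1, at 0.0435, Spsb2, at 0.0441, and Sphk2, at 0.0543. Pla2g4a was nearest to Wbscr27, at 0.0182, Tmem101, at 0.0424, and Fam115c, at 0.0440. Ptgs2 was nearest to Lrch1, at 0.113, Abcg1, at 0.115, and Itga11, at 0.120. None of these neighbours is in the tuft cell list. A gene that varies little has small differences from many others, so these values are compared within a gene and not between genes. With 6 libraries the ranking is a description.

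**Figure D3:**
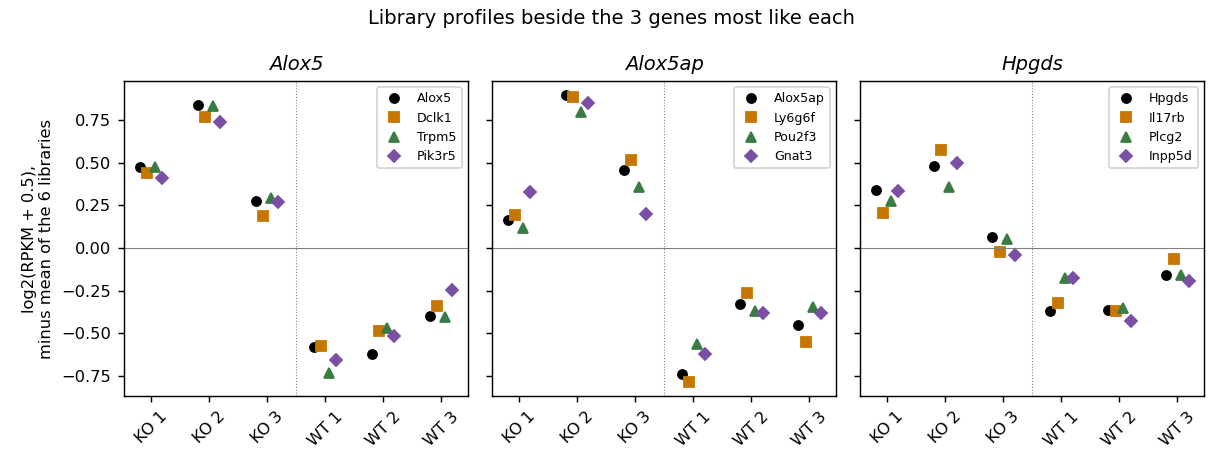
log2(RPKM + 0.5) minus the mean over the 6 libraries, for Alox5, Alox5ap and Hpgds (circles), each with the 3 genes of most similar profile (other symbols), by library. In the Alox5 and Alox5ap panels the 4 genes are highest in Sox2 KO replicate 2 and lie below the mean in each Sox2 WT library.

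The tuft cell list put these values in context. Of its 20 markers 16 were tested. In 15 of the 16 the groups did not overlap, with Sox2 KO higher, against 4.09% of all genes tested, the exception being Avil. Of the 15, Gng13, Plcb2 and Hmx3 had a Sox2 WT mean under 0.5 RPKM and passed the filter through their Sox2 KO level, so the count is a description of the list. The median log2 fold change over the 16 was 0.93, beside 0.02 over all genes tested. The summed level of all 19 markers in the table was 234, 226 and 191 RPKM in Sox2 KO and 150, 124 and 207 RPKM in Sox2 WT, and overlapped. Without Avil the summed level of the other 18 markers was 63.8, 85.4 and 62.3 RPKM in Sox2 KO and 24.7, 30.3 and 32.6 RPKM in Sox2 WT. Avil, at 129 to 170 RPKM in Sox2 KO and 93.4 to 175 RPKM in Sox2 WT, outweighs the rest and was left out of the second sum after its values were seen.

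Set against Trpm5 within each library, the genes showed unlike patterns. The ratio of Alox5 to Trpm5 was 1.19, 1.19 and 1.18 in Sox2 KO and 1.42, 1.06 and 1.22 in Sox2 WT, and overlapped. The ratio of Alox5ap to Trpm5 was 4.50 ± 0.792 in Sox2 KO and 5.27 ± 0.380 in Sox2 WT (SD, n = 3 each), and overlapped. For Ltc4s to Trpm5 it was lower on average in Sox2 KO, at 3.05 ± 0.905, against 4.93 ± 1.26 in Sox2 WT (SD, n = 3 each). The Ltc4s ratios overlapped only through Sox2 KO replicate 3, at 4.09, and Sox2 WT replicate 2, at 3.93. The ratio of Ptgs1 to Trpm5 was 3.43 ± 0.666 in Sox2 KO and 6.62 ± 1.09 in Sox2 WT (SD, n = 3 each), without overlap. That of Hpgds to Trpm5 was 0.441 ± 0.0351 in Sox2 KO and 0.610 ± 0.0758 in Sox2 WT (SD, n = 3 each), also without overlap. Both ratios were lower in Sox2 KO, so Ptgs1 and Hpgds differed by a smaller factor between the groups than Trpm5 did. Trpm5 is a single marker and was among the 3 genes most like Alox5. Its mean in Sox2 KO was 2.48 times that in Sox2 WT. Over the tuft cell list this factor ran from 1.12 for Avil to 3.90 for Gng13, so another marker could give other patterns. The ratios to Trpm5 were not tested.

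The 9 genes themselves summed to 54.5, 68.2 and 59.8 RPKM in Sox2 KO and to 40.5, 40.5 and 40.7 RPKM in Sox2 WT.

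**Figure D4:**
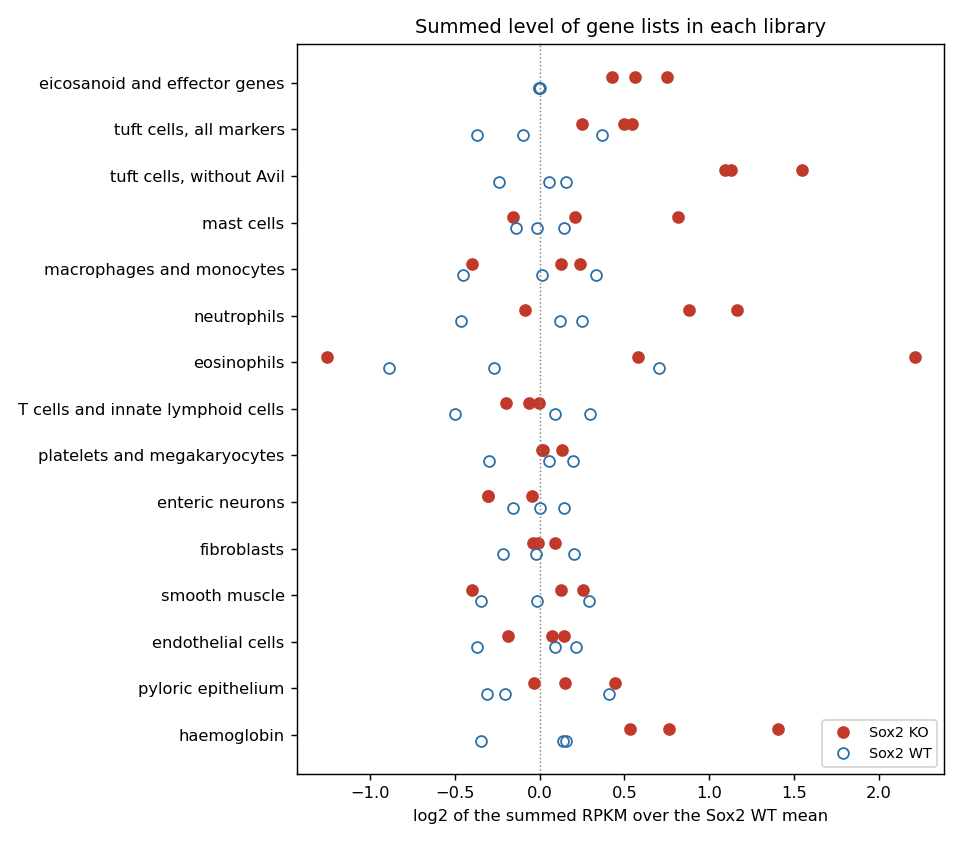
Log2 of the summed RPKM of the 9 genes and of each cell type list over the Sox2 WT mean, in the Sox2 KO (filled red) and Sox2 WT (open blue) libraries. The eicosanoid and effector genes, the tuft cell markers without Avil and the haemoglobin genes lie higher in each Sox2 KO library, and the other lists drawn, the tuft cell list with Avil included, overlap between the groups.

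Other cells that make these enzymes were followed by their own markers. Of 12 mast cell markers 11 were tested, and the summed level of the 12 was between 28.1 and 55.1 RPKM in Sox2 KO and between 28.4 and 34.6 RPKM in Sox2 WT, highest in Sox2 KO replicate 2. Of the 11, 9 overlapped between the groups, 6 had a log2 fold change above 0 and 5 below, and the median was 0.08. The other 2, the mast cell proteases Mcpt1 (log2 fold change 1.53, limma adjusted p = 1.00) and Mcpt2 (0.66, limma adjusted p = 1.00) were higher in every Sox2 KO library. Those that overlapped include Cpa3, the mast cell carboxypeptidase (0.23), Kit (-0.15) and Mcpt4 (-0.18). All 11 macrophage and monocyte markers overlapped between the groups, with a summed level of 112 to 174 RPKM in Sox2 KO and 108 to 186 RPKM in Sox2 WT. The 8 neutrophil markers summed to between 6.08 and 14.5 RPKM in Sox2 KO and between 4.68 and 7.69 RPKM in Sox2 WT, most of it Retnlg, with Ly6g listed at 0 in all libraries. Of the other neutrophil markers, all under the filter, S100a9 was higher in each Sox2 KO library, and S100a8, Csf3r, Cxcr2, Mpo and Ngp overlapped. The 5 eosinophil markers summed to at most 1.84 RPKM in Sox2 KO and 0.647 RPKM in Sox2 WT, with Epx and Ear1 listed at 0. The 5 platelet markers summed to between 5.89 and 6.40 RPKM in Sox2 KO and between 4.75 and 6.70 RPKM in Sox2 WT, mostly Pf4, which overlapped, while Itga2b and Gp1ba, under the filter, were higher in each Sox2 KO library.

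Markers of T cells and innate lymphoid cells, 7 in all, summed to between 3.99 and 4.56 RPKM in Sox2 KO and between 3.23 and 5.62 RPKM in Sox2 WT. The 11 enteric neuron markers summed to between 2.94 and 3.52 RPKM in Sox2 KO and between 3.26 and 4.01 RPKM in Sox2 WT, with Snap25 and Ret lower in each Sox2 KO library. The 4 haemoglobin genes, a sign of blood, summed to 6.45, 11.8 and 7.57 RPKM in Sox2 KO and to 4.97, 3.51 and 4.91 RPKM in Sox2 WT, with the peak in Sox2 KO replicate 2. None of the 4 passed (limma adjusted p = 1.00 each). The groups did not overlap in 2 of them, Hbb-bs and Hbb-bt, with Sox2 KO higher, as in 4.09% of all genes tested. Hbb-bt had a Sox2 WT mean of 0.429 RPKM and passed the filter through its Sox2 KO level. All 7 fibroblast, 5 smooth muscle and 5 endothelial markers overlapped between the groups. The part of mast cells, neutrophils and blood in the values of the 9 genes was not tested. Without Sox2 KO replicate 2 the log2 fold change was 0.91 for Alox5, 0.82 for Alox5ap, 0.49 for Ltc4s, 0.33 for Ptgs1 and 0.50 for Hpgds.

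Other genes of the same pathways were taken from 8 lists of 91 genes, of which 64 were tested. None passed in either direction. Of the 64, Pla2g4c, Il17rb and Chrm1 were higher and Pla2g2f, Abcc4 and Ptger4 lower in every Sox2 KO library, which is close to the 4.09% and 2.99% of all genes without overlap. The median log2 fold change over the 64 was 0.04, beside 0.02 over all genes tested. Among 15 tested phospholipase and arachidonate release genes, Pla2g4c, a cytosolic phospholipase related to Pla2g4a, was at 4.11, 2.28 and 2.83 RPKM in Sox2 KO, against 0.667, 1.12 and 1.05 RPKM in Sox2 WT (log2 fold change 1.29, SE 0.221, limma adjusted p = 0.262). This log2 fold change was above those of the 7 tested genes described above. Pla2g4e, in the same list but under the filter and not tested, was lower in each Sox2 KO library. It was at 0.0425 to 0.106 RPKM in Sox2 KO and 0.308 to 0.561 RPKM in Sox2 WT. The other genes of this list under the filter overlapped or were listed at 0. The secreted phospholipase gene Pla2g2a had a log2 fold change of 0.72 (SE 0.286, limma adjusted p = 1.00), and its values overlapped. The most abundant, the pancreatic type phospholipase gene Pla2g1b, ran from 1925 to 5112 RPKM in Sox2 KO and from 535 to 6921 RPKM in Sox2 WT, and Pla2g10 and Pla2g12a overlapped too.

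The other prostanoid synthase genes overlapped between the groups in all 8 cases tested. The prostaglandin E synthase genes Ptges (log2 fold change -0.05), Ptges2 (-0.05) and Ptges3 (0.06) and the thromboxane synthase gene Tbxas1 (0.06) were near 0. The carbonyl reductase gene Cbr1, the most abundant of them, was between 207 and 268 RPKM in Sox2 KO and between 209 and 262 RPKM in Sox2 WT. Hpgd, which encodes the enzyme that inactivates prostaglandins, was between 159 and 337 RPKM in Sox2 KO and between 157 and 235 RPKM in Sox2 WT. Ptgr1, a prostaglandin reductase gene, and Slco2a1, a prostaglandin transporter gene, overlapped as well. The transporter gene Abcc4 was lower in every Sox2 KO library (log2 fold change -0.21, limma adjusted p = 1.00). The 9 prostanoid receptor genes summed to 8.62 to 10.1 RPKM in Sox2 KO and 11.7 to 12.5 RPKM in Sox2 WT, without overlap. Ptger4 was the most abundant of them and holds the largest share of this sum, which therefore does not describe the receptor genes as a whole. Among the 7 tested, Ptger4, which encodes a receptor of prostaglandin E, was at 4.49, 3.07 and 3.69 RPKM in Sox2 KO, against 5.69, 4.90 and 6.86 RPKM in Sox2 WT (log2 fold change -0.57, SE 0.170, limma adjusted p = 1.00). It stood below Sox2 WT without overlap, and the other 6, Ptger1 and the thromboxane receptor gene Tbxa2r among them, overlapped. The prostaglandin D receptor genes Ptgdr and Gpr44, the older symbol of Ptgdr2, were at most 0.0741 RPKM in Sox2 KO and 0.104 RPKM in Sox2 WT.

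Among 10 tested leukotriene and lipoxygenase genes, all overlapped. Alox12e, under the filter and not tested, was higher in each Sox2 KO library. It was at 0.0596 to 0.0733 RPKM in Sox2 KO and 0.0147 to 0.0557 RPKM in Sox2 WT. Lta4h, whose product takes the same intermediate as Ltc4s to leukotriene B, was between 22.6 and 25.8 RPKM in Sox2 KO and between 24.2 and 27.6 RPKM in Sox2 WT (log2 fold change -0.07, SE 0.105). Mgst2 and Mgst3, glutathione transferases related to Ltc4s and Alox5ap, had log2 fold changes of 0.05 and 0.08. Alox15, another lipoxygenase gene, had 0.47 (SE 0.180, limma adjusted p = 1.00). Of the leukotriene receptor genes, Ltb4r1 had 0.50 (SE 0.195, limma adjusted p = 1.00) and Cysltr1 0.05 (SE 0.154), and both overlapped.

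In the interleukin-25 circuit 9 of 13 genes were tested. Il17rb was between 0.693 and 1.30 RPKM in Sox2 KO and between 0.436 and 0.656 RPKM in Sox2 WT, without overlap (log2 fold change 0.51, SE 0.191, limma adjusted p = 1.00), and is also in the tuft cell list. The most abundant of the list, Stat6 (-0.01), Il13ra1 (0.09) and Il33 (-0.07), overlapped. The type 2 cytokine genes Il4, Il5, Il9 and Il13, under the filter, were each at most 0.193 RPKM in Sox2 KO and 0.0964 RPKM in Sox2 WT. Among these cytokine genes only Il4 was higher in each Sox2 KO library, with its lowest Sox2 KO value, 0.0967 RPKM, beside 0.0964 RPKM in Sox2 WT. In the acetylcholine list, 7 of 13 genes were tested. The muscarinic receptor gene Chrm1 was between 2.22 and 2.46 RPKM in Sox2 KO and between 1.55 and 1.96 RPKM in Sox2 WT, without overlap (log2 fold change 0.30, SE 0.127, limma adjusted p = 1.00). The choline transporter gene Slc44a1 (0.07), the cholinesterase anchor gene Prima1 (-0.44) and the cholinesterase gene Bche overlapped. Slc5a7, the high-affinity choline transporter gene of cholinergic neurons, was at most 0.0133 RPKM in Sox2 KO and 0.0483 RPKM in Sox2 WT. Colq, under the filter and not tested, was higher in each Sox2 KO library, at 0.0724 to 0.116 RPKM, against 0.0280 to 0.0569 RPKM in Sox2 WT.

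Sex and position were set beside the differences. With sex as a covariate, which sets Sox2 KO against the male library Sox2 WT replicate 1 alone, the log2 fold change was 1.11 for Alox5, 1.25 for Alox5ap, 0.45 for Ltc4s, 0.35 for Ptgs1 and 0.66 for Hpgds, with limma adjusted p values from 0.913 to 0.999. Alox5 lies on chromosome 6 at 116410077 to 116461178 (mm10), 3.33 Mb from the Rosa26 locus at 113067428 to 113077333, where the Sox2 KO mice carry CreER. Sequence linked to the inserted allele and the loss of Sox2 cannot be told apart for a gene this close. Of 104 tested genes within 10 Mb of Rosa26, 5 were higher and 2 lower in every Sox2 KO library, near the 4.09% and 2.99% of all genes. None of the 104 passed, their median log2 fold change was 0.03, and Alox5 had the highest value among them. Alox5ap lies on chromosome 5 (149264767 to 149288153), Ltc4s on chromosome 11 (50236461 to 50238616), Ptgs1 on chromosome 2 (36230426 to 36252272), and Il25 and Chat on chromosome 14. Hpgds is also on chromosome 6 (65117293 to 65144908), 47.9 Mb from Rosa26. Pla2g4a and Ptgs2 are neighbours on chromosome 1, 139 kb apart.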

How the data were processed

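RNA of the pylorus was sequenced in 3 Sox2 KO and 3 Sox2 WT libraries. The authors deposited RPKM for 39179 genes; the submitters' processing notes name CASAVA 1.7, STAR and mm10, and for the counter, annotation and strandedness the sources used here give nothing. Of rows sharing a symbol the one with the highest mean was kept. Genes with a mean of at least 0.5 RPKM (14045) entered limma 3.58.1 (R 4.3.3) as log2(RPKM + 0.5), using a mean-variance trend, with Benjamini-Hochberg adjustment over all of them. The fold change is Sox2 KO minus Sox2 WT on that scale, which understates changes of low genes. Reads were recovered from the RPKM as the smallest whole numbers that fit, within 1.0e-04 reads, for 100% of 23538 genes above 0; true reads can be a multiple of them. Gene positions are from GENCODE M21 (GRCm38, which is mm10) and start regions from RefSeq (GRCm38.p6). Sex was read from Xist and Ddx3y.

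The 9 genes and all lists were chosen with earlier results of these data known. Named besides the 9 are, per pathway list, up to 3 genes with the highest mean and 2 with the smallest p; per cell type list up to 3 with the highest mean; and the 3 genes most like each tested gene. Others (among them Pla2g2f, Pla2g4e, Ptges, Tbxas1, Ptgdr, Gpr44, Lta4h, Alox12e, Il4, Il5, Il9, Il13, Slc5a7, Colq, Mcpt1, Cpa3, Kit, Mcpt4, S100a8, Cxcr2, Mpo, Ngp, Gp1ba, Ly6g, Epx, Ear1, Ret, Hbb-bt and the markers plotted) were picked after their values were seen. Alternatives were other pseudocounts, filters, scalings and variance models, the replicate number as a block, sex as a covariate, male libraries alone, voom on recovered reads, an adjusted p under 0.1, and each library left out in turn. A result on a marker gene is not reported here.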

Additional observations from a re-analysis of the deposited data

How the results depend on the processing

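None of the 7 tested genes and none of the 64 tested pathway genes passed in the limma test, and neither these nor others of the lists passed under any of the 19 alternatives that tested them. An unadjusted p under 0.05 was reached by 5 of the 7, against 3.15% of all genes. Il25 and Chat, fitted only without the filter, had a limma adjusted p of 1.00 each. The 7 tested genes kept the direction of their log2 fold change under all 18 alternatives that refit it. For many of these that was fixed in advance. The other filters, the variance models and the replicate block cannot change the estimate. Sex as a covariate and male libraries alone give the same estimate as each other. The range was 0.91 to 1.21 for Alox5 (limma adjusted p 0.174 to 0.913), 0.82 to 1.25 for Alox5ap (0.270 to 1.00), 0.45 to 0.73 for Ltc4s (0.446 to 1.00), 0.28 to 0.36 for Ptgs1 (0.699 to 1.00), -0.45 to -0.02 for Ptgs2 (0.972 to 1.00), 0.46 to 0.77 for Hpgds (0.473 to 1.00) and 0.13 to 0.30 for Pla2g4a (0.972 to 1.00). Over all genes 4 passed in the limma test, 1 with sex as a covariate, 0 among male libraries alone (583 at an unadjusted p under 0.05), 8 with voom on recovered reads, 8 at an adjusted p under 0.1, and between 1 and 8 with 1 library left out (8 without Sox2 KO replicate 1, 1 without Sox2 KO replicate 2, 7 without Sox2 WT replicate 1, 1 without Sox2 WT replicate 3); the cause was not tested. With the replicate number as a block 1 gene passed. In this layout the block leaves every log2 fold change as it was and can alter only its SE. Alox5ap, at 1.02, had a limma adjusted p of 0.270 in that fit. Deviations of same-numbered libraries correlated at 0.00879, 0.0970 and -0.0740 for numbers 1 to 3. Those of Sox2 KO and Sox2 WT libraries with unlike numbers correlated at -0.158 to 0.165. With 3 libraries in each group these correlations cannot settle whether same-numbered libraries were paired. The median log2 fold change of all genes was between -0.05 and 0.05 in every fit. Depth limits Il25, with 21 reads in Sox2 KO and 8 in Sox2 WT, and Chat, with 6 reads in Sox2 KO and 1 in Sox2 WT.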
